A study of Mus musculus with 18 samples.

Results

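The genes described here encode 9 parts of the Polycomb machinery, taken as possible carriers of the mark that this machinery makes: Ezh2, Ezh1, Eed, Suz12, Cbx2, Cbx7, Cbx8, Bmi1 and Kdm6b. They were chosen by name, and each gene was measured over a window of its body with 2.5 kb on each side, out of 21631 protein-coding genes of the autosomes and of chromosome X. Of 98434 deposited intervals of H3K27me3 enrichment in 12 libraries, 84 overlapped these windows. H3K27me3 had been profiled by CUT&Tag, in which an antibody directs a transposase to the marked chromatin, in the medial ganglionic eminence (MGE), the ventral forebrain zone that gives rise to many cortical interneurons. The comparison asked how deletion of Ezh2 changes the mark at E12.5 and E15.5.

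Each stage had 3 WT and 3 KO libraries. All embryos came from crosses of Nkx2.1-CreC/C;Ezh2F/+ males with Ai9F/F;Ezh2F/+ females, so WT and KO alike carried Nkx2.1-CreC/+ and the Ai9F/+ tdTomato reporter, and the genotype at Ezh2 is given by the labels as WT or KO. Recombination was limited to cells with a history of Nkx2-1 expression, and MGEs of embryos with the same genotype were combined where needed, so a library can stand for more than 1 embryo. At E12.5 the whole MGE was taken, and at E15.5 the dissection was guided by the tdTomato signal. The series has 18 samples, of which 6 are heterozygous and were not analysed here. In bulk tissue, fewer marked cells and less mark per cell cannot be told apart.

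Polycomb repressive complex 2 (PRC2) writes H3K27me3 through its catalytic subunit EZH2 or EZH1, held together by EED and SUZ12. EED also binds the finished mark and stimulates further writing. Canonical PRC1 reads the mark through a CBX protein such as CBX2, CBX7 or CBX8, ubiquitinates histone H2A, and contains a PCGF subunit such as BMI1. KDM6B (JMJD3) removes methyl groups from the same lysine. In neural progenitors the system keeps regulators of other cell fates and of later stages silent.

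The libraries held 5008 to 13289 intervals, with 573838 to 6846250 counts inside them. The mean count per 200 bp window recovered from the deposited scores, used here as depth, ran from 0.0751 to 0.698. In a check of the mark at marker genes, 7 of 7 ventral telencephalon genes, 6 of 6 dorsal pallium genes and 5 of 5 mesoderm and endoderm genes had an interval in all 12 libraries. Of 8 housekeeping genes, 7 had none in any library and Rpl13a had one in 7. The lists hold marked intervals only and give no expression, so they do not test the identity of the tissue.

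Promoter sequence from RefSeq (GRCm38.p6, 250 bases before to 50 after the start site) was held for 7 of the 9 genes, the others being Cbx2 and Kdm6b. The entries for Cbx8, Bmi1 and Cbx7, whose windows (like that of Kdm6b) were marked in all 12 libraries, are shown with that of Ezh2, which was never marked, because both kinds are rich in CG dinucleotides. The CG dinucleotides are in capitals, and each entry is given 5′ to 3′ along the strand of the gene.
Cbx8, chr11:119040864-119041163, minus strand: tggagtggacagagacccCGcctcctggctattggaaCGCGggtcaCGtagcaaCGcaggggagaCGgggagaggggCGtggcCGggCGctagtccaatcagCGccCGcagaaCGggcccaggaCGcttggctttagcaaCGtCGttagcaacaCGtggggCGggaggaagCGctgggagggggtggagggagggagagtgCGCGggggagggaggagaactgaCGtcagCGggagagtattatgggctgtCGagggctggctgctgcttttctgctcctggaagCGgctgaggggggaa
Bmi1, chr2:18676768-18677067, plus strand: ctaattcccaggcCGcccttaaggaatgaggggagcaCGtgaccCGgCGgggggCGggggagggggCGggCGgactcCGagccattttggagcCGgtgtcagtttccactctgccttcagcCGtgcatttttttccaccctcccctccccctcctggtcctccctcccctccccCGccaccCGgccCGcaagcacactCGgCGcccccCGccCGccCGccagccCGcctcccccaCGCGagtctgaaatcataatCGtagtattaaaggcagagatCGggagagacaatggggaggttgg
Cbx7, chr15:79932597-79932896, minus strand: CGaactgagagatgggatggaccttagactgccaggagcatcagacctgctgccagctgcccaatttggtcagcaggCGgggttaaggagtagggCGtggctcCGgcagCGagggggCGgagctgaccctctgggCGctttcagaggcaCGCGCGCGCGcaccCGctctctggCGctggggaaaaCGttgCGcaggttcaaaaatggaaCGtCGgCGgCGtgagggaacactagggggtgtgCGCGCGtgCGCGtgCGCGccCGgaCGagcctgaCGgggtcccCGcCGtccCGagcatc
Ezh2, chr6:47594981-47595280, minus strand: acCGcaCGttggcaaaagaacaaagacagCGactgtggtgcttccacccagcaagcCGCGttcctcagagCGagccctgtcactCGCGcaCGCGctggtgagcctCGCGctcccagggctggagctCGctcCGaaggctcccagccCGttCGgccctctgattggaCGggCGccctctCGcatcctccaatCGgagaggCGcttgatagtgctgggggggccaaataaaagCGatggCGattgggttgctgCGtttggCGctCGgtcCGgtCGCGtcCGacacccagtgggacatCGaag

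The motif searched was CG, which reads the same on both strands. The Cbx8 entry held 24, the Bmi1 entry 23 and the Cbx7 entry 33, against a median of 7 over the 32851 promoters in the table. The Ezh2 entry held 31, that of Suz12 41, that of Ezh1 23 and that of Eed 17. Of all promoters, 20.0% had at least as many as Cbx8, 10.6% at least as many as Ezh2 and 3.46% at least as many as Suz12. The number of CG dinucleotides therefore did not separate marked from unmarked members: the Suz12 promoter had the most and no interval, and the Cbx8 promoter lay inside an interval in all 12 libraries.

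Ezh2, the targeted gene, had no interval over its window (chromosome 6, 47530274 to 47595270, with 2.5 kb flanks) in any of the 6 WT or 6 KO libraries. Because the lists give no value for unmarked DNA, they carry no measure of the deletion itself. Eed and Suz12, the scaffold partners of EZH2, likewise had none in 12 libraries. Ezh1, the paralogous methyltransferase, had an interval in 2 of 12. In E12.5 WT replicate 2, the deepest library, it held 33 counts over 3.6 kb beyond the 3′ end of the gene, at 2.63-fold over the library mean. In E15.5 WT replicate 1, the shallowest, it held 6 counts over 0.4 kb upstream of the start site, at 39.9-fold. Here and below, fold over the library mean is counts per 200 bp of interval divided by the depth of the library. This density per length can be compared between genes, but in a shallow library 6 counts over a short interval already give a high value. Neither Ezh1 interval touched the gene body, and neither recurred in another library. The PRC2 core as a group was thus without recurrent H3K27me3 intervals in both genotypes and at both stages.

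The PRC1 genes and the demethylase differed from this. Cbx7, Cbx8, Bmi1 and Kdm6b had an interval in 12 of 12 libraries, and Cbx2 in 11, the exception being E15.5 WT replicate 1. Among all protein-coding genes, 11.6% had an interval in every library and 61.3% had none in any, against 4 and 3 of the 9 members. In single libraries, 15.3 to 30.4% of all protein-coding genes were marked. The number of marked members was 5 in 11 libraries and 6 in E12.5 WT replicate 2, where Ezh1 was the addition; in E15.5 WT replicate 1 the 5 included Ezh1 and not Cbx2. The mean difference, KO minus WT, was -0.33 genes at E12.5 and 0 at E15.5. Over both stages it was -0.17 genes (exact two-sided permutation test within stages, p = 1; the smallest p that 3 against 3 allows is 0.1, and over both stages 0.005).

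**Figure D1:**
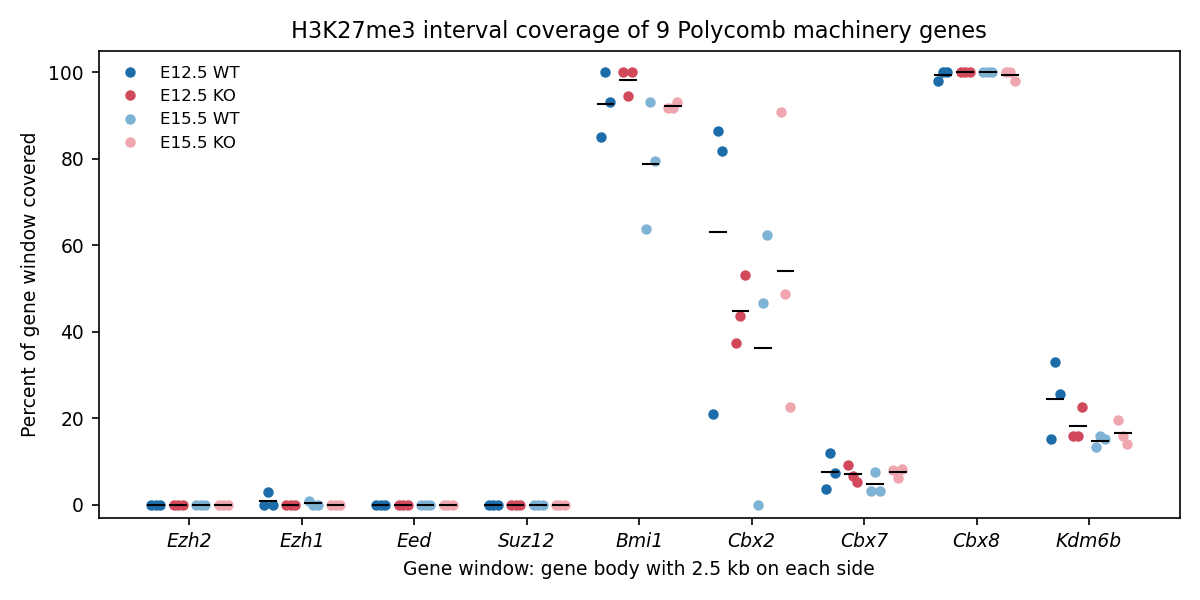
Percent of each gene window (gene body with 2.5 kb on each side) covered by H3K27me3 intervals. Each point is a library, coloured by stage and genotype, and each black line is the mean of 3. Ezh2, Eed and Suz12 lie at 0 in all 12 libraries, and Cbx8 between 97.9 and 100%.

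Cbx8 carried the densest mark of the members. Its window was covered over 97.9% in E12.5 WT replicate 1 and in E15.5 KO replicate 3, and over 100% in the other 10 libraries. The interval over the gene body was 28.0 to 69.6 kb long (median 32.5 kb), although the gene itself spans 4.6 kb (chromosome 11, 119036303 to 119040913). In fold over the library mean, its density was 221, 98.2 and 145 in E12.5 WT, and 146, 195 and 177 in E12.5 KO. At E15.5 it was 238, 180 and 178 in WT, and 129, 197 and 177 in KO. WT and KO overlapped at both stages. The lowest value belonged to E12.5 WT replicate 2, where the interval was the longest and ran farther upstream. Among all marked genes of the same library, Cbx8 stood between percentiles 96.9 and 99.0 in density.

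The chromobox genes Cbx2 and Cbx8 lie side by side on chromosome 11, 5.03 kb apart, and the mark was unevenly spread over them. CBX2 is the reader best known for compacting chromatin. At the end of Cbx2 away from Cbx8, an interval of 1.2 to 9.8 kb was present in 11 libraries, at 5.24- to 12.2-fold over the library mean. The interval over Cbx8 was 15.9 to 33.9 times as dense in the same libraries (median 23.6). The order of density, Cbx8 over Cbx2, held in each of these 11 libraries, and E15.5 WT replicate 1 had no interval at Cbx2.

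**Figure D2:**
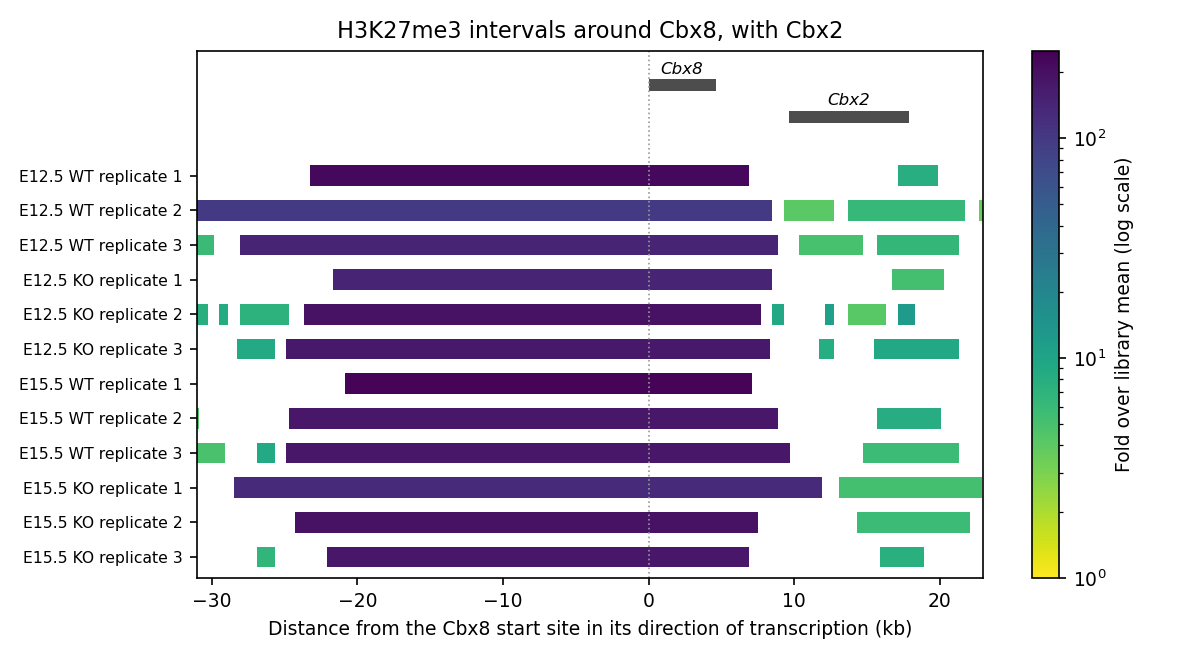
H3K27me3 intervals of the 12 libraries around Cbx8 and Cbx2, by distance in kb from the Cbx8 start site along its direction of transcription; colour gives fold over the library mean on a log scale and grey bars are gene bodies. The dark interval covers Cbx8 and runs upstream of it in every library, beside sparse intervals over Cbx2; the interval of E12.5 WT replicate 2, 69.6 kb long, runs past the left edge.

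The covered share of the Cbx2 window varied most among the members. It was 21.1, 86.4 and 81.9% in E12.5 WT, and 37.5, 43.6 and 53.2% in E12.5 KO. At E15.5 it was 0, 46.6 and 62.3% in WT, and 90.9, 48.7 and 22.6% in KO. No group stood apart from another. The KO minus WT difference was -18.4 percentage points at E12.5 (exact two-sided permutation test, p = 0.4) and 17.8 points at E15.5 (p = 0.5). Over both stages it was -0.28 points (exact permutation test, p = 0.99). Leaving out E15.5 KO replicate 3 moved it to 7.58 points. Part of this coverage came from the edge of the Cbx8 interval, which entered the Cbx2 window in most libraries.

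Bmi1 (chromosome 2, 18677018 to 18686629), which encodes the PCGF4 subunit of PRC1, was marked at its start site in 12 of 12 libraries. A denser mark crossed its 3′ end and ran on downstream. The interval at the start site held 16.9- to 74.8-fold over the library mean. The highest values, 73.7, 46.9 and 74.8, came from E12.5 WT replicate 2, E12.5 KO replicate 1 and E12.5 KO replicate 3, where a single interval of 34.8, 30.8 or 32.2 kb joined the start site to the downstream domain. In the other 9 libraries the intervals were separate. The downstream interval reached the near end of Spag6, a gene of the ciliary axoneme, and covered the predicted gene Gm46725 between them. It was 3.26 to 6.09 times as dense as the interval at the start site in these 9 libraries (median 4.06).

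At the Bmi1 start site, the density at E15.5 was 29.0, 24.1 and 25.2-fold in WT and 16.9, 20.5 and 22.0-fold in KO, all intervals being separate. All 3 KO values lay below all 3 WT values, as at 13.1% of 1265 start sites of protein-coding genes that had an interval in all 6 libraries. Separation in either direction was seen at 15.4% of these start sites. The KO intervals were 14.0, 11.2 and 9.0 kb long and the WT intervals 6.8, 8.8 and 9.0 kb. Density falls when an interval takes in sparse edges. The scaled counts of the same intervals overlapped, at 256, 275 and 295 in WT and 307, 299 and 257 in KO. No test was made of the density or of these counts. The Bmi1 window was covered over 84.9, 100 and 93.2% in E12.5 WT, and 100, 94.5 and 100% in E12.5 KO. At E15.5 it was covered over 63.8, 93.2 and 79.5% in WT, and 91.8, 91.8 and 93.2% in KO. Over both stages KO exceeded WT by 9.45 percentage points (exact two-sided permutation test within stages, p = 0.11). It came to 11.3 points (p = 0.04) when E12.5 WT replicate 2 was left out and to 13.0 points (p = 0.02) when E15.5 WT replicate 2 was left out, but to 5.70 points (p = 0.14) without E15.5 WT replicate 1, all from the same exact test.

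**Figure D3:**
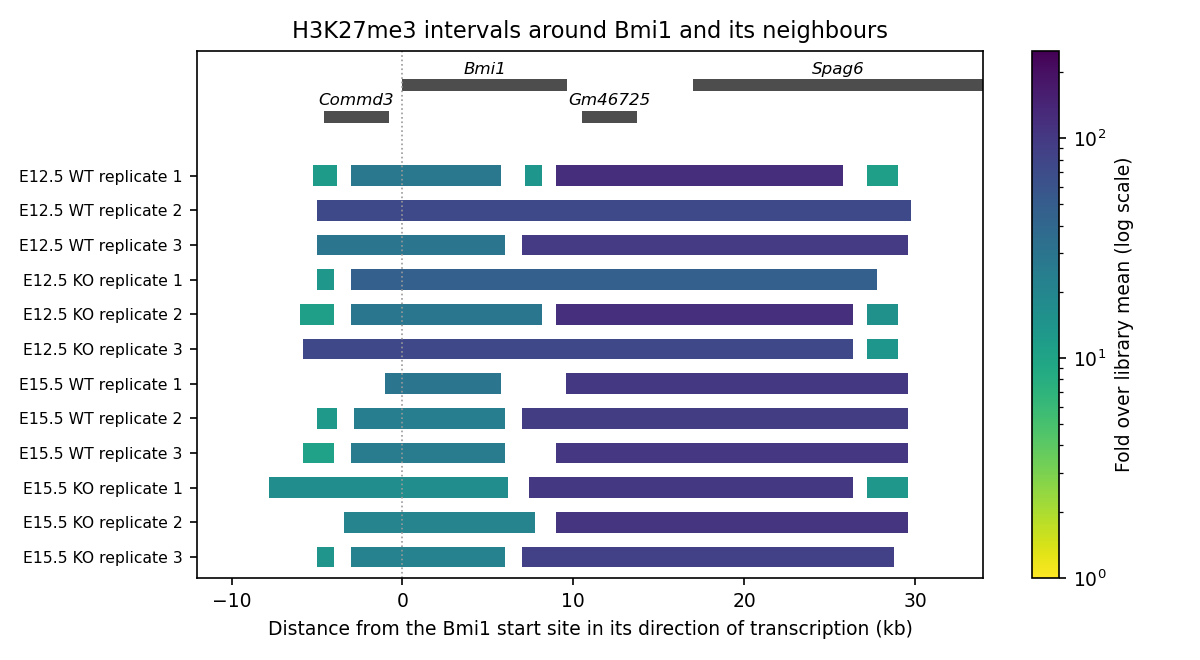
H3K27me3 intervals of the 12 libraries around Bmi1 and its neighbours Commd3, Gm46725 and Spag6, by distance in kb from the Bmi1 start site; colour gives fold over the library mean on a log scale and grey bars are gene bodies. In 9 libraries a sparser interval over the Bmi1 start site is separate from a denser one that crosses the 3′ end and runs downstream. In 3 libraries at E12.5 they are joined.

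Cbx7, a PRC1 reader that is prominent in pluripotent cells, had a short and weak interval near its listed start site (chromosome 15, position 79932646), which lies inside the longer annotated span of the gene. An interval touched the promoter in 11 of 12 libraries and covered the start site in 10. In E15.5 WT replicate 1 the interval lay wholly upstream of the promoter entry. The promoter interval was 2.0 to 7.2 kb long, at 3.27- to 19.3-fold over the library mean, and it held 13 to 207 counts. The Cbx7 window was covered over 3.31 to 11.9%. The smallest count in any interval of a list was 5 to 13.

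Kdm6b, the H3K27 demethylase gene (chromosome 11, 69398508 to 69420367), was marked over the end at its higher coordinate, next to Dnah2, an axonemal dynein gene. The interval covered that end in 11 libraries, was 3.6 to 9.4 kb long and held 6.15- to 23.7-fold over the library mean. In E12.5 KO replicate 3 the mark there was split into separate intervals on either side of the end. The Kdm6b window was covered over 13.4 to 33.0%. The counts of a shared interval cannot be divided between Kdm6b and Dnah2. The KO minus WT difference in the covered share over both stages was -2.36 percentage points for Kdm6b (p = 0.51), 1.10 for Cbx7 (p = 0.51) and 0 for Cbx8 (p = 1), by the exact permutation test. Of 30 such tests over members, stages and genotypes, 24 set 3 against 3 libraries and could not go below 0.1. In the other 6, over both stages, the smallest p was 0.11 (exact permutation test, 0.956 after Benjamini-Hochberg adjustment over the 30).

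**Figure D4:**
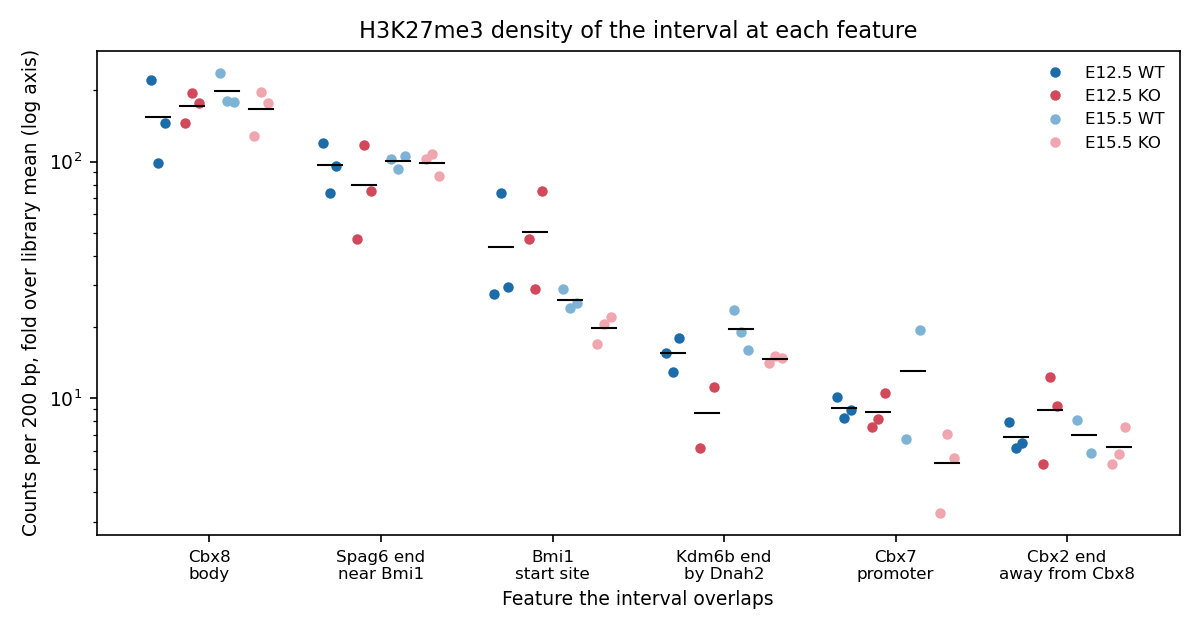
Density of the H3K27me3 interval at each named feature, in counts per 200 bp as fold over the library mean (log axis). Each point is a library in which the feature has an interval, coloured by stage and genotype, and black lines are group means. Cbx8 lies highest, from 98.2 to 238-fold, and the Cbx2 end away from Cbx8 lies between 5.24 and 12.2-fold.

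Counts were compared between genotypes over merged regions called in every library compared, scaled to the mean depth. None of the member regions passed the threshold of 0.05 in any comparison (edgeR quasi-likelihood test, Benjamini-Hochberg over all regions). At E12.5, 10.7% of 3243 regions were called (337 lower and 11 higher in KO), against 0 of 5 member regions. An unadjusted p below 0.05 was reached by 1 of the 5, beside 1080 of all 3243 (edgeR). At E15.5, 4.89% of 2781 regions were called (48 lower and 88 higher), against 0 of 4. Below an unadjusted 0.05 were 0 of the 4, beside 450 of all 2781. Over both stages 13.2% of 2368 regions were called (277 lower and 36 higher), against 0 of 4. Below an unadjusted 0.05 was 1 of the 4, beside 759 of all 2368. The split of calls over both stages depends on the scaling, with 156 lower and 139 higher with TMM factors and 146 lower and 160 higher with DESeq2. The comparisons share their libraries, so that over both stages is not a separate test. Counts were also summed over called length, which differs between libraries. Among 423 regions whose covered length differed at most 1.5-fold between libraries, 10 were called lower and 1 higher at E12.5. Their median log2 change was -0.28, beside -0.56 over all 3243 regions. DESeq2 called 0 member regions in these 3 comparisons as well, but gave no adjusted p for Cbx7 at E15.5 (log2 change -0.54), which it therefore could not call.

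Kdm6b had the lowest log2 change of the 5 member regions at E12.5, with depth scaling as with TMM factors and DESeq2. Its region, shared with Dnah2, held 88.6, 157 and 108 scaled counts in WT and 36.7, 66.8 and 87.6 in KO. All 3 KO libraries lay below all 3 WT libraries, the closest pair being 87.6 and 88.6. Groups were separate, in either direction, in 33.6% of all 3243 regions at E12.5. The fitted log2 change was -0.90 (SE 0.42, 95% interval -1.72 to -0.08, adjusted p = 0.124, edgeR quasi-likelihood test), beside a median of -0.56 over all regions. Leaving out 1 library gave -0.63 to -1.19 (adjusted p = 0.0158 to 0.520, edgeR). The lowest value came without E12.5 KO replicate 3, the one such fit to pass the threshold, in which 48.1% of all 3248 regions were called (1542 lower and 21 higher). Without E12.5 WT replicate 2 or E12.5 KO replicate 1 it was -0.63 (adjusted p = 0.520 and 0.408, edgeR).

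At E15.5 the Kdm6b region held 111, 119 and 95.3 scaled counts in WT and 106, 93.9 and 72.9 in KO, and the groups overlapped. The log2 change was -0.26 (SE 0.25, adjusted p = 0.681, edgeR), beside a median of -0.02. Over both stages it was -0.58 (95% interval -1.06 to -0.10, adjusted p = 0.0883, edgeR). It passed the threshold without E12.5 KO replicate 3 (-0.73, adjusted p = 0.0178, edgeR), where 41.2% of all 2368 regions were called, and without E12.5 WT replicate 1 (-0.65, adjusted p = 0.0352, edgeR), where 22.3% of 2411 were. In the other 10 fits that left out 1 library it did not pass, the weakest value being -0.44 without E12.5 WT replicate 2 (adjusted p = 0.310, edgeR). The difference between the stages in the KO effect was 0.65 (95% interval -0.31 to 1.61, adjusted p = 0.312, edgeR).

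At E12.5 the Cbx8 region, which spans 70.4 kb, held 10542, 8882 and 8843 scaled counts in WT and 7142, 10037 and 9759 in KO. Most of its length comes from the 69.6 kb interval of WT replicate 2, and in the other libraries it takes in further intervals. The interval over Cbx8 itself held 8675, 8882 and 6973 scaled counts in WT and 5712, 7962 and 7626 in KO. The groups overlapped in both, and the log2 change of the region was -0.07 (95% interval -0.43 to 0.30, adjusted p = 0.774, edgeR). At E15.5 the region of Cbx8 with the near part of Cbx2 held 8644, 7866 and 8031 scaled counts in WT and 6758, 8144 and 6693 in KO. Again the groups overlapped, since KO replicate 2 lay among the WT values. The log2 change was -0.18 (95% interval -0.43 to 0.06, adjusted p = 0.473, edgeR). Without E15.5 KO replicate 2 it was -0.28 and passed the threshold (adjusted p = 0.040, edgeR), as did 4.02% of 2863 regions, and leaving out any other library gave -0.13 to -0.21 and no call. Cbx2, a region of its own only at E12.5, held 28.8, 82.2 and 75.7 scaled counts in WT and 24.5, 42.0 and 80.1 in KO, with a log2 change of -0.40 (95% interval -1.22 to 0.42, adjusted p = 0.451, edgeR). Leaving out 1 library moved the Cbx2 value from -0.96 (without E12.5 KO replicate 3, adjusted p = 0.0513, edgeR) to -0.08 (without E12.5 KO replicate 1, adjusted p = 0.927, edgeR).

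The Bmi1 region includes the downstream domain, which holds most of its counts. In E15.5 WT the start-site interval held 256, 275 and 295 scaled counts and the downstream interval 2657, 2730 and 2817. The whole region held 3007, 3333 and 3227 scaled counts in E12.5 WT and 1896, 3136 and 3160 in E12.5 KO. KO replicate 1 thus stood below the other 5. The log2 change was -0.22 (95% interval -0.66 to 0.21, adjusted p = 0.421, edgeR). At E15.5 it held 2913, 3026 and 3136 in WT and 2886, 3171 and 2744 in KO. This overlap went with a log2 change of -0.05 (95% interval -0.27 to 0.18, adjusted p = 0.895, edgeR).

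The Cbx7 region held 28.8, 77.0 and 50.8 scaled counts in E12.5 WT and 55.1, 37.2 and 43.8 in E12.5 KO, with the KO values inside the WT range. At E15.5 it held 45.0, 40.2 and 50.3 in WT and 20.4, 34.9 and 36.1 in KO, so that all 3 KO libraries lay below all 3 WT libraries, as in either direction in 21.8% of all 2781 regions. The log2 change was -0.26 at E12.5 (adjusted p = 0.611, edgeR) and -0.54 at E15.5 (95% interval -1.24 to 0.16, adjusted p = 0.465, edgeR). The E15.5 value rests on 13 to 48 counts per library. By density the E15.5 groups overlapped, at 17.3, 6.72 and 19.3-fold in WT and 3.27, 7.07 and 5.56-fold in KO.

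Scaling matters for the signs at E12.5. With TMM factors the median log2 change of all regions was -0.04 and not -0.56, and called regions were 143 lower and 94 higher. Every member then moved up by about the same amount. Relative to the median of all regions, the E12.5 log2 change was 0.49 at Cbx8, 0.34 at Bmi1, 0.30 at Cbx7, 0.16 at Cbx2 and -0.34 at Kdm6b with depth scaling. With TMM factors these relative values were 0.47, 0.32, 0.36, 0.11 and -0.35. Taken on their own scale, Cbx8, Bmi1, Cbx7 and Cbx2 changed sign at E12.5, from -0.07, -0.22, -0.26 and -0.40 with depth scaling to 0.43, 0.28, 0.32 and 0.07 with TMM factors, and no direction is given for them. Kdm6b was below 0 under both (-0.90 and -0.39).

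**Figure D5:**
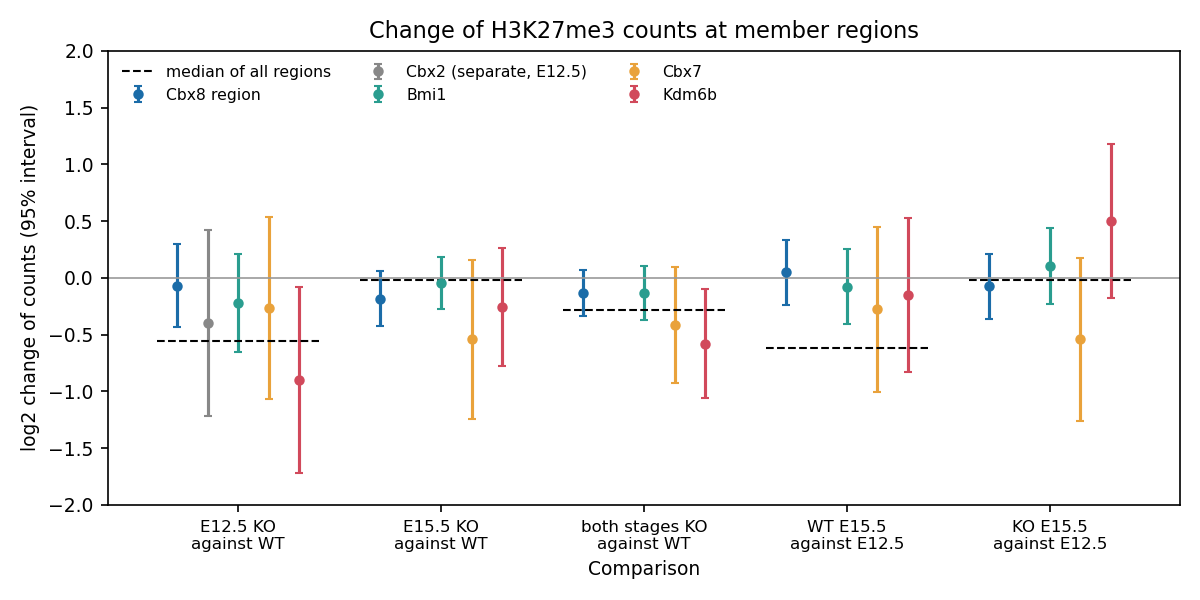
Fitted log2 change of counts at the member regions in 5 comparisons, with depth scaling; points are estimates, bars are 95% intervals and dashed lines are the median of all regions tested. The Cbx8 region includes Cbx2 in all but E12.5 KO against WT. Intervals of all members except Kdm6b at E12.5 and over both stages include 0, and with TMM factors the E12.5 estimates for Cbx8, Bmi1, Cbx7 and Cbx2 are above 0.

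The stages were compared within each genotype. In WT, 47.8% of 2368 regions differed between E15.5 and E12.5 (1067 lower and 65 higher at E15.5), with a median log2 change of -0.62, against 0 of 4 member regions. Among 130 regions of like covered length, 25 were called lower and 6 higher, with a median of -0.12. The member values were 0.05 for the region of Cbx2 and Cbx8, 85.8 kb long (95% interval -0.24 to 0.34), -0.08 for Bmi1 (-0.41 to 0.26), -0.28 for Cbx7 and -0.15 for Kdm6b. With TMM factors called regions were 530 lower and 401 higher, and 2 member regions were called higher at E15.5. They were that of Cbx8 (0.54, adjusted p = 0.0458, edgeR) and that of Bmi1 with its downstream domain (0.43, adjusted p = 0.0235, edgeR). DESeq2 called the same member regions, and 39.3% of all regions were called with either. With depth scaling, the interval at the Bmi1 start site alone held 315 and 420 scaled counts in E12.5 WT replicates 1 and 3, where it was separate. In E15.5 WT it held 256, 275 and 295, and this was not tested. In KO, 18.4% of regions were called (199 lower and 236 higher), against 0 of 4, and the member values ran from -0.54 at Cbx7 to 0.50 at Kdm6b. The KO effect itself differed between stages in 6.67% of regions (158, all towards a higher value at E15.5), against 0 of 4 member regions, whose smallest adjusted p was 0.312 (edgeR). With TMM factors 5 regions were called towards a lower and 46 towards a higher value, and with DESeq2 14 and 47, as the median over all regions moved from 0.61 to 0.07 and to -0.0025.

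The 2 dense domains also varied little over the 12 libraries as a whole. The SD of log2 scaled counts was 0.17 for the region of Cbx2 and Cbx8, at percentile 2.20 of 2368 regions. It was 0.21, at percentile 6.08, for the region of Bmi1 with its downstream domain. It was 0.52 for Kdm6b and 0.49 for Cbx7, beside a median of 0.50. Regions with few counts also vary more through counting alone, and the part of this in the order was not tested. The regions whose scaled counts followed the Cbx2 and Cbx8 region most closely over 12 libraries were those of Onecut3 (Pearson r 0.93), Wt1 (0.92) and Catsper3 with Pitx1 (0.92). These libraries share their depth scaling, and the values are a description.

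Of 41 other genes of the Polycomb system, taken from a list of PRC2, PRC1, H2A deubiquitinase and demethylase genes, 4 had an interval in all 12 libraries, 16 in none and 21 in some. Over all 21631 protein-coding genes, 11.6% had one in all 12 libraries and 61.3% in none. Among the other 9 PRC2 genes, Epop, which encodes a PRC2 accessory subunit, was the gene marked in all 12, at 35.8- to 104-fold over the library mean. Among 27 other PRC1 genes these were Pcgf1, Sfmbt2 and Bcor. Pcgf1, the PCGF subunit of a noncanonical PRC1 that also holds BCOR, stood at 85.3- to 179-fold, but its region also covered the homeobox genes Tlx2 and Lbx2. Sfmbt2 stood at 31.8- to 52.7-fold and Bcor, on chromosome X, at 7.74- to 39.3-fold. No gene of the list had an interval in all libraries of one genotype and none of the other at a stage (0 of 41). The share of all protein-coding genes with that pattern is not given here, so the 0 is not read as stability.

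Between WT and KO, 0 of 7 regions of these other genes were called at E12.5 and 0 of 3 at E15.5 (edgeR quasi-likelihood test). At an unadjusted p below 0.05 were 1 and 0 of them, beside 1080 of 3243 and 450 of 2781 of all regions (edgeR). That 1 region, with a log2 change of -0.79, reached only the flank of L3mbtl2. Among protein-coding gene bodies it touched Chadl alone, and L3mbtl2 had an interval in 1 of 12 libraries. The region stays in the counts and medians given here. The median log2 change of the regions of these other genes was -0.48 at E12.5 and -0.05 at E15.5. Beside it stood medians of -0.26 and -0.22 for the member regions and -0.56 and -0.02 for all regions. Of 4 regions of these other genes, 1 was called between stages in KO, beside 18.4% of all 2368 regions. It was that of Epop, which was higher at E15.5 (log2 change 0.66, SE 0.22, adjusted p = 0.0232, edgeR). Its change in WT was 0.24 (adjusted p = 0.375, edgeR), and the test of the difference gave an adjusted p of 0.308 (edgeR).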

How the data were processed

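H3K27me3 CUT&Tag lists of 12 mouse MGE libraries (3 WT and 3 KO at each of E12.5 and E15.5) were used; replicates are separate samples in the labels. The submitters' processing notes name cutadapt, Bowtie2, SAMtools, Picard, deepTools and SICER, with builds GRCm38 and mm10, without versions or order. Each library has its own list of intervals on a grid of 200 bp windows, with a count per interval as the authors deposited it (whole numbers, not normalised) and a score, also deposited by the authors.

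In single-window intervals below the score ceiling of 1000, the score matched −ln of the Poisson probability of that count, given a mean fixed for the library (largest misfit 0.0041). This mean was taken as the depth, on the assumption that it follows the number of reads. Scaled counts are counts times the mean depth of the 12 libraries over that of the library. Gene windows came from RefSeq genes of GRCm38; an overlap needed 1 shared bp.

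Counts were summed over autosomal regions (merged intervals present in all lists of a comparison) and then tested by edgeR 4.0.16 in R 4.3.3 (quasi-likelihood test, library size proportional to depth, Benjamini-Hochberg, threshold 0.05), a step tested on simulated data. Regions lost from any list are outside this test. Presence and covered share were tested by exact two-sided permutation over 20 assignments per stage or 400 within stages. Alternatives were other flanks, equal list lengths, TMM factors, DESeq2 1.42.0, other region filters, gene windows, a replicate block and leaving out each library.

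The members and lists were chosen with earlier results of these data known. All 9 members are named. Some genes of the marker and Polycomb lists are not reported here and were left out of the counts over these lists. Other Polycomb genes are named if marked in all 12 libraries, in a called region, in a region shared with a member, or in all libraries of 1 genotype and none of the other at a stage. Tlx2, Lbx2, Rpl13a, L3mbtl2 and Chadl were named after their values were seen. Promoters are shown for Ezh2 and for the members marked in all 12 libraries with an entry in the promoter table; Kdm6b has none there. Replicate numbers were not used to pair libraries, except in the replicate block. The remaining steps ran in Python 3.11.15 with scipy 1.17.1, pandas 2.3.3, numpy 2.4.6 and, for plots, matplotlib 3.10.9.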

Additional observations from a re-analysis of the deposited data

How the results depend on the processing

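The count of intervals over a gene depends on depth, which differed between libraries from 0.0751 to 0.698 counts per window, and a region missing from a list has no count, so small losses at Cbx2 or Cbx7 are outside the count test. Precision is limited by 3 libraries per group. The number of marked members was nearly constant, and its tests within a stage cannot pass 0.05, so they say nothing of stability; the KO minus WT difference over both stages was 0.17 genes with the gene body alone, and the difference between stages was -0.33 with lists of equal length.

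Member regions called numbered 0 with depth scaling in all 6 comparisons. The exceptions were 2 in WT between stages with TMM factors and 2 with DESeq2, and, leaving out 1 library, 0 to 1 at E12.5, 0 to 1 at E15.5 and 0 to 1 over both stages. The fit with the replicate number as a replicate block called 0 member regions in every comparison; Kdm6b at E12.5 was -0.91 (adjusted p = 0.0734, edgeR). It called 640 regions at E12.5 against 348 without it, 115 against 136 at E15.5, and 272 against 158 for the difference between stages. Deviations of same-numbered WT and KO libraries correlated at 0.23, 0.06 and 0.08 at E12.5 and at -0.10, -0.01 and -0.08 at E15.5. Between libraries of different number the values ran from -0.19 to 0.15 at E12.5 and from -0.02 to 0.09 at E15.5. Whether the numbers stand for a shared batch was not tested, and the labels do not say.

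Several small log2 changes, none of them called with depth scaling, changed sign. With TMM factors the E12.5 values were 0.43 at Cbx8, 0.28 at Bmi1, 0.32 at Cbx7 and 0.074 at Cbx2, and with DESeq2 0.48, 0.34, 0.41 and 0.15. Over both stages TMM factors gave 0.12 at Cbx8 and 0.12 at Bmi1, and DESeq2 0.14 and 0.15. For the difference between stages at Bmi1 they gave -0.35 and -0.42. In WT between stages TMM factors gave 0.43 at Bmi1, 0.26 at Cbx7 and 0.39 at Kdm6b, and DESeq2 0.52, 0.38 and 0.48. Gene windows gave 0.17 at Cbx8, 0.0094 at Bmi1 and 0.25 at Cbx2 at E12.5, 0.11 at Bmi1 at E15.5, 0.059 at Bmi1 over both stages and -0.44 at Bmi1 in KO between stages. The cause of these sign changes was not tested beyond the shift of the median.

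Leaving out 1 library, the log2 change ran from -0.16 to 0.072 at Cbx8 and from -0.50 to 0.016 at Cbx7 at E12.5, and from -0.071 to 0.0012 at Bmi1 at E15.5. The difference between stages at Bmi1 ran from -0.026 to 0.30. In WT between stages it ran from -0.50 to 0.11 at Cbx7 and from -0.30 to 0.12 at Kdm6b, and in KO from -0.22 to 0.012 at Cbx8 and from -0.10 to 0.22 at Bmi1.

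For the covered share in percentage points, the KO minus WT difference over both stages at Cbx2 was 2.23 with the gene body alone, 1.46 with 5000 bp flanks and 1.73 with equal lists, and at Cbx7 -0.61 with equal lists. In KO between stages, equal lists gave -1.44 at Cbx7 and 2.90 at Kdm6b, and the gene body alone 0.86 at Kdm6b; in WT equal lists gave 0.33 at Ezh1. Leaving out 1 library, Cbx2 ran from -0.62 to 33.5 at E15.5, from -10.8 to 7.58 over both stages and from -9.11 to 25.1 in KO between stages. Cbx7 ran from -2.54 to 1.60 at E12.5 and from -0.44 to 1.55 in KO between stages, Kdm6b from -3.10 to 0.66 in KO between stages, and Ezh1 from -1.14 to 0.33 in WT between stages. Regions of like covered length left no value for Kdm6b, Cbx7 or Cbx2 and, at Cbx8, a value at E15.5 alone, and a mean count of at least 50 none for Cbx7 at E15.5 or over both stages.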
